A study of Rattus norvegicus with 6 samples.

Results

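Immediate early genes are the genes that a cell switches on within minutes of a stimulus, before any new protein has to be made. The set described here holds 10 genes grouped under that name, Ier2, Ier3, Junb, Jun, Fos, Fosl1, Egr1, Btg2, Atf3 and Myc. Whether each of them meets this definition in these cells was not tested. They were found by symbol among the 17143 genes of the deposited table. All 10 were present once, and all 10 passed the filter for testing, which asked for 2 or more libraries at 5 normalized units or above. The set was drawn up with the folds of both treated matrices against native already known. Folds and adjusted p-values of its members are therefore given as a description of these libraries, and no statement rests on them as a test.

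The cells were Rat-1, an established line of rat fibroblasts grown in medium with 10% serum. They were seeded at 25000 cells per well and lysed 4 h later, while attached to extracellular matrix (ECM). The groups were cells on MMP13-remodelled ECM, cells on MMP1-remodelled ECM and cells on native ECM that no protease had cut, with 2 libraries each. MMP1 and MMP13 are matrix metalloproteinases that cleave fibrillar collagen, and here they acted on the matrix before it met the cells. All groups shared the cell line, the time and the seeding. The labels speak of duplicates without saying whether separate cultures were used, so the p-values measure only the spread between libraries, which may be technical.

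Growth factors, serum, adhesion and stress reach these genes through kinase cascades that act on factors already bound at their promoters, such as serum response factor at the CArG box and CREB at the cyclic AMP response element (CRE). Many of their products are transcription factors themselves. JUN, FOS and ATF family proteins pair through leucine zippers into AP-1, a factor that in fibroblasts drives genes of growth and of matrix breakdown. Most of these transcripts are short-lived, and a culture sampled hours after a stimulus is past the first peak of the fastest ones.

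Values are size-factor-normalized reads per gene as the authors deposited them, called units here, from libraries of transcript 3' ends. A library held between 161817 and 362122 reads, and 1 read was worth between 0.735 and 1.68 units. Fibroblast markers took between 2.94% and 3.29% of reads, with Lum at 0 in all libraries. Markers of leukocyte, endothelial, epithelial, tenocyte and erythroid cells took at most 0.00978%, 0.00364%, 0.00856%, 0.0181% and 0.00166% of reads in any library. In bulk RNA, fewer responding cells and less RNA per cell cannot be told apart.

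The 10 genes together made up 685 and 646 units on MMP13-treated matrix, 704 and 645 on MMP1-treated matrix and 433 and 462 on native matrix. Every treated library lay above both native libraries, with group means of 666 ± 27.0, 674 ± 41.9 and 447 ± 20.6 units (SD, n = 2 each) on MMP13-treated, MMP1-treated and native matrix. As a share of all reads this was 0.257% and 0.238% on MMP13-treated matrix, 0.262% and 0.239% on MMP1-treated matrix and 0.162% and 0.176% on native matrix. The higher sum on MMP13-treated matrix lay with Ier2, Ier3 and Junb, a group picked by outcome. These 3 genes summed to 479 and 457 units on MMP13-treated matrix, 457 and 390 on MMP1-treated matrix and 227 and 272 on native matrix. The other 7 summed to 206 and 190 units on MMP13-treated matrix, to 247 and 254 on MMP1-treated matrix and to 205 and 189 on native matrix, so that the MMP1 libraries stood above the rest there and the MMP13 libraries lay within 1 unit of the native ones.

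**Figure D1:**
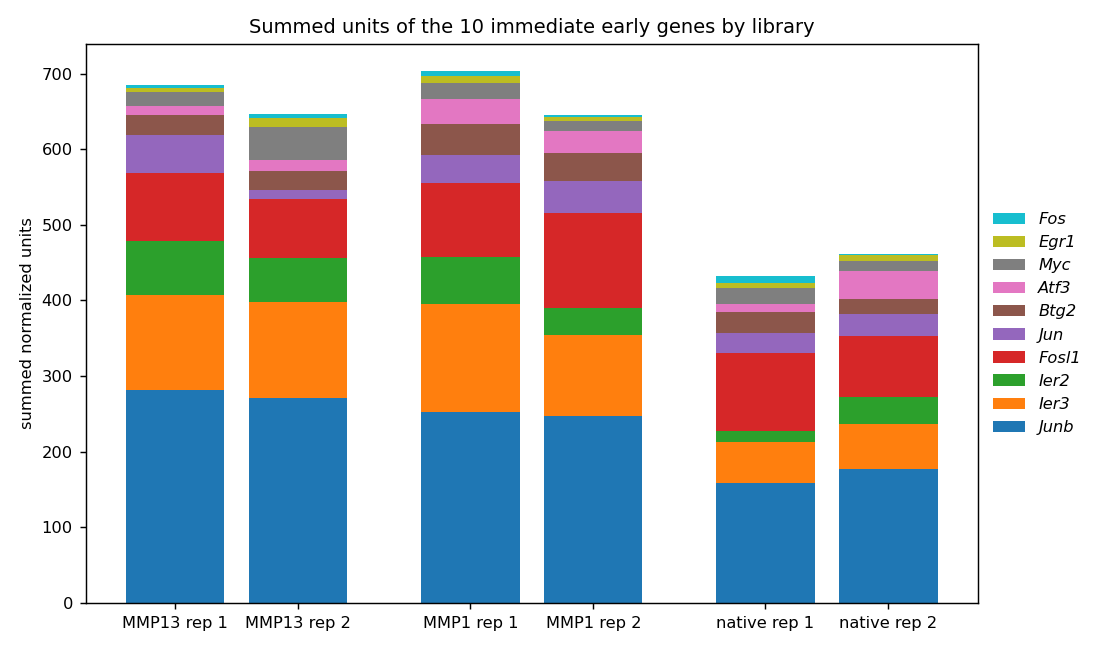
Summed normalized units of the 10 immediate early genes (y axis) in each of the 6 libraries (x axis), with 1 colour per gene. The 4 treated libraries stand between 645 and 704 units and the 2 native libraries at 433 and 462.

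Differences between groups were taken from limma, fitted on log2(value + 1) over all 7284 tested genes and all 6 libraries, with a call at a Benjamini-Hochberg adjusted p under 0.05 over all tested genes. On MMP13-treated matrix 3 of the 10 genes, Ier2, Ier3 and Junb, were called higher and 0 lower, where 0.275% of all tested genes were called higher and 0.137% lower. On MMP1-treated matrix 1 of the 10, Ier3, was called higher and 0 lower, against 0.137% and 0.0137% of all tested genes. Since the set was chosen with these comparisons known, nothing is read from these shares. The median log2 fold of the 10 genes was 0.19 on MMP13-treated and 0.52 on MMP1-treated matrix, beside 0.0088 and 0.016 over all tested genes. A log2 fold above 0 was seen for 6 of the 10 on MMP13-treated matrix, for 8 on MMP1-treated matrix and for 6 in MMP13 over MMP1, where 50.5%, 51.1% and 49.8% of all tested genes had one.

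The calls depended on how replicate scatter was estimated. The fit took each gene's error wholly from the trend of scatter with level, pooled over all genes, on 21852 degrees of freedom. With each gene's own error on 3 degrees of freedom, or with limma without the trend, 0 of the 10 were called in any comparison, and likewise 0 of all tested genes. At an unadjusted p under 0.05 the pooled fit had 3 of the 10 on MMP13-treated and 3 on MMP1-treated matrix, where 8.05% and 8.24% of all tested genes passed. An exact permutation test of 2 libraries against 2 cannot go below a two-sided p of 0.333.

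Ier3, a short-lived protein that modulates cell survival and ERK signalling after growth or stress stimuli, had the smallest adjusted p of the set on both matrices. It had 126 and 128 units on MMP13-treated matrix, 143 and 107 on MMP1-treated matrix, and 54.7 and 60.4 on native matrix. All treated libraries lay above both native ones, and the treated groups overlapped each other. The lowest exact 95% Poisson limit among treated libraries, 85.8 units, lay above the highest limit among native libraries, 75.1 units (counting error only). Its log2 fold was 1.13 on MMP13-treated matrix (SE 0.25, adjusted p = 0.0055) and 1.09 on MMP1-treated matrix (SE 0.25, adjusted p = 0.012), or 2.20-fold and 2.17-fold by group means. Between MMP13- and MMP1-treated matrix the log2 difference was 0.03, with a 95% interval from -0.46 to 0.53.

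Junb encodes a JUN family subunit of AP-1 that also restrains c-Jun. Its transcript had 282 and 270 units on MMP13-treated matrix, 253 and 247 on MMP1-treated matrix, and 158 and 177 on native matrix. The 3 groups did not overlap and stood in the order MMP13, MMP1, native, although the Poisson limits of MMP13 and MMP1 libraries overlapped (from 230 to 315 units in MMP13 replicate 2 and from 216 to 293 in MMP1 replicate 1). Junb was called on MMP13-treated matrix, at 1.65-fold by group means and 0.72 on the log2 scale (SE 0.18, adjusted p = 0.026). On MMP1-treated matrix the log2 fold was 0.58 (SE 0.18) and was not called (adjusted p = 0.17). The log2 difference between MMP13- and MMP1-treated matrix was 0.14, with a 95% interval from -0.21 to 0.50 and an adjusted p of 1, so a call against native on one matrix and not on the other does not show that the matrices differ. Its replicates were close: the gene's own SD on the log2 scale was 0.07, under the trend's 0.18.

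Ier2, a nuclear protein induced early by growth factors, had 71.3 and 58.8 units on MMP13-treated matrix, 61.3 and 36.0 on MMP1-treated matrix, and 14.6 and 35.5 on native matrix. Treated libraries were all above native ones, but MMP1 replicate 2 at 36.0 units and native replicate 2 at 35.5 units were nearly level. The native pair differed 2.43-fold, on 12 and 47 reads, with Poisson limits of 7.54 to 25.5 and 26.1 to 47.2 units that do not meet. Its log2 fold was 1.46 on MMP13-treated matrix (SE 0.35, adjusted p = 0.019) and 1.01 on MMP1-treated matrix (SE 0.35, adjusted p = 0.26). The gene's own SD of 0.60 was 1.69 times the trend's 0.35, on 3 degrees of freedom. Whether Ier2 varies more than its trend was not tested. Without native replicate 1 the log2 fold was 0.85 on MMP13-treated matrix (adjusted p = 0.999) and 0.40 on MMP1-treated matrix.

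Leaving out 1 library at a time kept the log2 folds of all 3 genes above 0 on both matrices. This had to follow, since every treated library lay above both native ones for each of these genes. Across these 6 fits Ier3 ranged from 1.06 to 1.20 on MMP13-treated and from 0.88 to 1.30 on MMP1-treated matrix. Junb ranged from 0.64 to 0.80 and from 0.50 to 0.66, and Ier2 from 0.85 to 2.08 and from 0.40 to 1.62. The calls were not steady. Fits without a library of the other treated matrix kept both compared groups whole and left these log2 folds unchanged. A call held in such a fit does not test dependence on the libraries compared. On MMP13-treated matrix Ier3 and Ier2 each held their call in 3 of 6 fits and Junb in 1 of 6, the fit without native replicate 2. On MMP1-treated matrix Ier3 held its call in 3 of 6, and lost it without MMP1 replicate 1 (adjusted p = 0.42), native replicate 1 (0.44) and native replicate 2 (0.058). On MMP13-treated matrix no gene of the set was called without MMP13 replicate 1, MMP13 replicate 2 or native replicate 1.

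**Figure D2:**
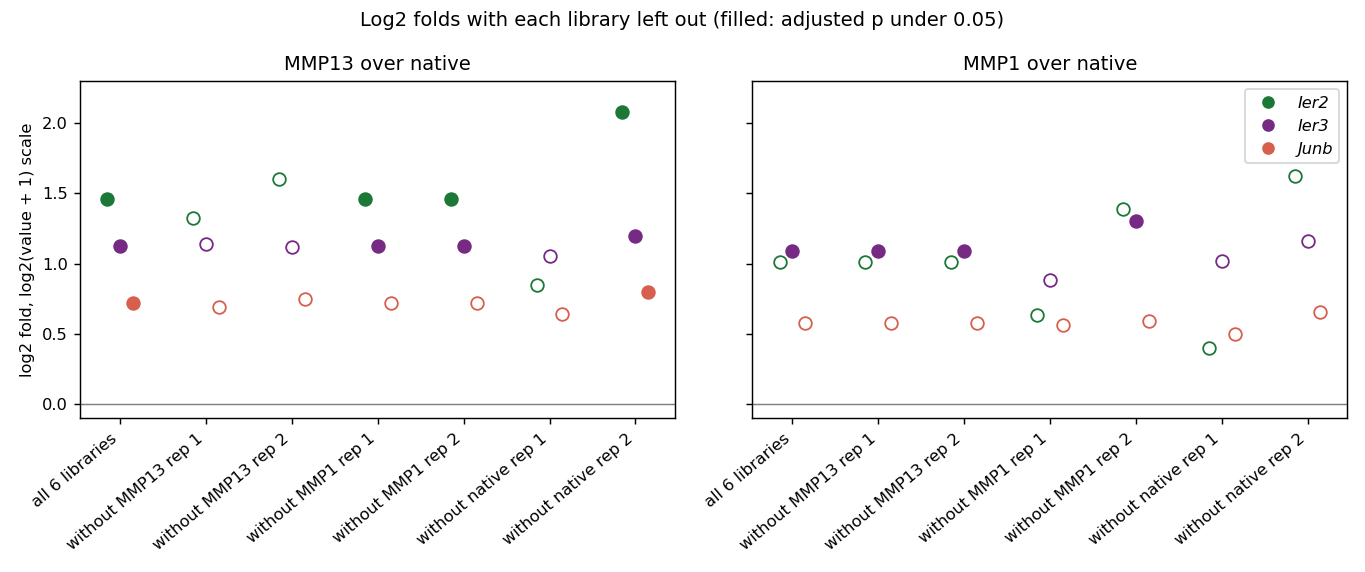
Log2 folds of Ier2, Ier3 and Junb (y axis) with all 6 libraries and with each library left out (x axis), filled where the adjusted p from limma was under 0.05. All points lie above 0, which follows from the treated libraries all lying above the native ones. Ier2 spreads from 0.85 to 2.08 on MMP13-treated matrix, and Junb stays between 0.50 and 0.80 over both panels.

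Over the 6 libraries the log2 values of Ier3 and Junb correlated with r = 0.96, those of Ier2 and Junb with r = 0.89 and those of Ier2 and Ier3 with r = 0.87, the highest of the 45 pairs in the set. These 3 genes were also the ones called higher against native, so high values of r among them follow in part from that choice. They are descriptions over 6 libraries in 3 groups that share depth and scaling, and shared control was not tested. Promoters of Ier2 and Junb are shown, with those of Btg2 and Egr1, whose values did not follow them as closely. RefSeq windows of the rat build GRCr8, which is not the rn5 build of the deposited table, were found for 5 of the 10 members, Ier2, Junb, Fosl1, Egr1 and Btg2. Each runs from 250 bases before to 50 bases after the annotated start, 5′ to 3′ on the gene's strand. Capitals mark matches, on either strand, to the CRE (TGACGTCA), the CArG box, the AP-1 site (TGANTCA), the EGR site (GCGNGGGCG), the E-box (CACGTG), the antioxidant response core (TGACNNNGC) and the TATA box (TATAAA).
Ier2, chr19:40399123-40399422, plus strand: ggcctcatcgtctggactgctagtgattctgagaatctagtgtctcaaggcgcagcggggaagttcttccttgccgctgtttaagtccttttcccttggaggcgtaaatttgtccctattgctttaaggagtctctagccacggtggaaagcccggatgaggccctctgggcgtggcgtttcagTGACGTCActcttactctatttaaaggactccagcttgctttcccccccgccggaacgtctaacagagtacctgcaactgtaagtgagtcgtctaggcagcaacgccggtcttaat
Junb, chr19:40080876-40081175, plus strand: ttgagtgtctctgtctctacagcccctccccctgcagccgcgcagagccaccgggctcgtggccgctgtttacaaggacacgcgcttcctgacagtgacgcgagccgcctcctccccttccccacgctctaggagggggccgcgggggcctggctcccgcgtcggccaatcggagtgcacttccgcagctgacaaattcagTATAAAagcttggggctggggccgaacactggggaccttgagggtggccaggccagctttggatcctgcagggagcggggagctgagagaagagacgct
Btg2, chr13:48087641-48087940, minus strand: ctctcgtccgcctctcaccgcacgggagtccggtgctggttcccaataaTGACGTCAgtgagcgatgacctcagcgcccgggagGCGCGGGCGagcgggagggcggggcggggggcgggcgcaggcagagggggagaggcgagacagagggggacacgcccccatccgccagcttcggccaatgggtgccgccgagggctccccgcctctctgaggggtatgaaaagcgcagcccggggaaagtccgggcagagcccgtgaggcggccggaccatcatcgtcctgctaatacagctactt
Egr1, chr18:26736828-26737127, plus strand: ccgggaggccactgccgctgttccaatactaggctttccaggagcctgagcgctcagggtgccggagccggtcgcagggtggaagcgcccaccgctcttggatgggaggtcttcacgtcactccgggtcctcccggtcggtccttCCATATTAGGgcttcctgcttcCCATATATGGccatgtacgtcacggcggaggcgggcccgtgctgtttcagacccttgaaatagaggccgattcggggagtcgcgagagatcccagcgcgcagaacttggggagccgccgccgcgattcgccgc

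The Ier2 window held a full CRE starting 66 bases before the start, and the Btg2 window one starting 201 bases before it, followed by an EGR site. A full CRE stood in 1.83% of the 33469 RefSeq windows of the same length and an EGR site in 4.98%. The Egr1 window held 2 CArG boxes, starting 105 and 83 bases before the start, and CArG boxes stood in 1.64% of all windows. The Junb window held a TATA box, found in 14.2% of windows, and no CRE, CArG box or AP-1 site. None of the 5 windows held an AP-1 site (7.33% of all windows) or an E-box (6.42%), and the antioxidant response core stood in Fosl1 alone of the 5 (12.1% of all windows). A match is a string of letters in this window and not a site shown to be bound. The CRE half-site TGACG was in all 5 windows and in 21.2% of all windows. It stands in capitals within the full CRE and in lower case elsewhere in the windows shown. It was the one motif searched that Ier2 and Junb shared. G and C made up 52.7% of the Ier2 window, 65.3% of Junb, 62.3% of Fosl1, 64.7% of Egr1 and 69.7% of Btg2. The median over all windows was 51.7%. Shares were not matched for base composition, so enrichment of any motif was not tested.

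Jun encodes c-Jun, the founding AP-1 subunit and the end point of JNK signalling. It had 50.0 and 11.8 units on MMP13-treated matrix, 38.0 and 42.0 on MMP1-treated matrix, and 26.7 and 29.4 on native matrix. Both MMP1 libraries lay above both native ones, while the MMP13 libraries fell on either side of all others. Those MMP13 values rest on 68 and 7 reads, and their Poisson limits, from 38.8 to 63.4 and from 4.73 to 24.2 units, do not meet. The log2 fold was -0.19 on MMP13-treated matrix (95% interval -0.98 to 0.60) and 0.49 on MMP1-treated matrix (-0.30 to 1.29), neither called. The own SD of Jun was 2.03 times the trend's, and both intervals take their error from the trend alone. Without MMP13 replicate 2, the shallowest library, the log2 fold on MMP13-treated matrix was 0.81, and by edgeR, which weights reads, it was 0.29.

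The FOS family members gave no call. Fosl1, which encodes FRA-1, the FOS protein that persists in growing fibroblasts, had 89.7 and 77.2 units on MMP13-treated matrix, 97.8 and 126 on MMP1-treated matrix, and 103 and 80.7 on native matrix. Treated and native libraries overlapped on both matrices, and the MMP13 libraries lay below the MMP1 ones. Its log2 fold was -0.13 on MMP13-treated matrix (95% interval -0.63 to 0.36) and 0.28 on MMP1-treated matrix (-0.22 to 0.77).

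Fos itself, the serum-induced partner of JUN proteins, was close to the floor of detection. It had 3.68 and 5.04 units on MMP13-treated matrix, 7.30 and 2.40 on MMP1-treated matrix, and 9.72 and 2.26 on native matrix, from 2 to 8 reads a library and 26 reads in all. All 3 groups overlapped. The 95% interval of its log2 fold ran from -2.05 to 1.74 on both MMP13- and MMP1-treated matrix, so a change of several-fold either way was not detectable at this depth. Egr1, a zinc finger factor that serum response factor switches on, was as sparse, with 39 reads in all. It had 5.15 and 11.8 units on MMP13-treated matrix, 8.76 and 4.80 on MMP1-treated matrix, and 6.08 and 7.55 on native matrix, with overlap throughout and log2 folds of 0.19 (95% interval -1.34 to 1.71) and -0.05 (-1.57 to 1.48) on MMP13- and MMP1-treated matrix.

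Atf3, the stress-induced member of the ATF family, had the largest log2 fold of the 10 between the treated matrices. Its values were 12.5 and 15.1 units on MMP13-treated matrix, 32.1 and 28.8 on MMP1-treated matrix, and 10.9 and 37.7 on native matrix. The native libraries spanned both treated groups, with 9 and 50 reads and Poisson limits that do not meet. Between MMP13- and MMP1-treated matrix the log2 fold was -1.09 (SE 0.48, 95% interval -2.03 to -0.15, unadjusted p = 0.022), with an adjusted p of 0.82. Against native it was -0.54 on MMP13-treated and 0.55 on MMP1-treated matrix, and each of these turned sign when 1 native library was left out. In the RefSeq annotation of GRCr8, which is not the rn5 build of the deposited table, the gene Garin4 overlaps Atf3. Since strand use in counting is not given in the sources used here, reads of the 2 genes may not have been separated.

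Btg2, an antiproliferative gene induced by growth factors and p53, had 26.5 and 25.2 units on MMP13-treated matrix, 40.9 and 37.2 on MMP1-treated matrix, and 26.7 and 18.9 on native matrix. The MMP1 libraries stood above all others, and the MMP13 libraries lay within the native range. Its log2 fold was 0.19 on MMP13-treated matrix (95% interval -0.62 to 1.01) and 0.77 on MMP1-treated matrix (-0.05 to 1.58, adjusted p = 0.65). The log2 difference of MMP13- over MMP1-treated matrix was -0.58 (-1.39 to 0.24).

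Myc, the growth-promoting transcription factor, had 18.4 and 43.7 units on MMP13-treated matrix, 21.9 and 13.2 on MMP1-treated matrix, and 21.9 and 12.8 on native matrix. MMP13 replicate 2 stood alone, and the other 5 libraries ran from 12.8 to 21.9 units. The log2 fold was 0.73 on MMP13-treated matrix (95% interval -0.22 to 1.67) and 0.02 on MMP1-treated matrix (-0.92 to 0.96). Without MMP13 replicate 2 the log2 fold on MMP13-treated matrix was 0.12. That library was also the one in which Jun was lowest.

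**Figure D3:**
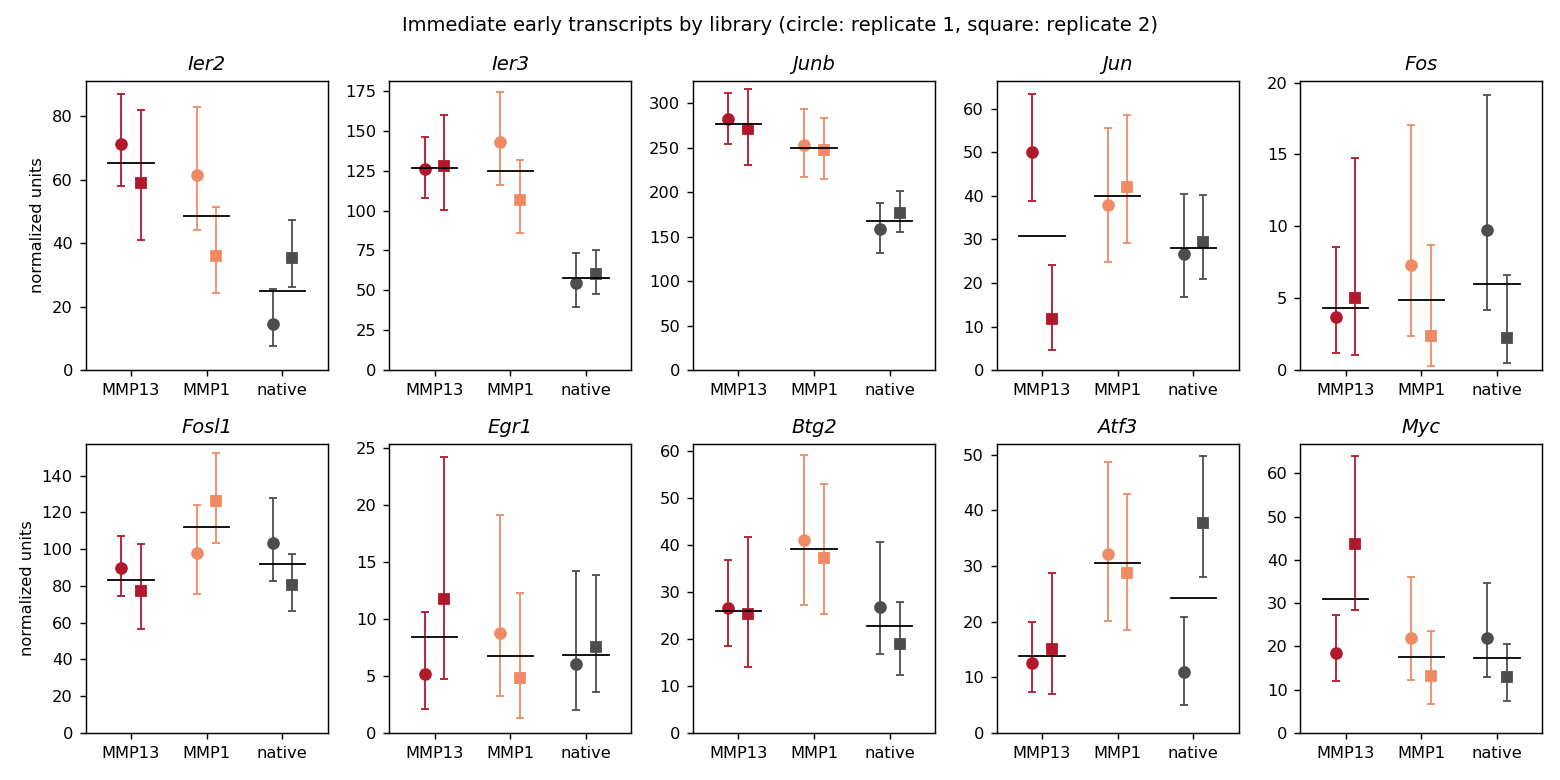
Normalized units (y axis, from 0) of each immediate early gene in the MMP13, MMP1 and native libraries, circles for replicate 1 and squares for replicate 2, with exact 95% Poisson limits as bars and the group mean as a black line. Ier3 and Junb show treated libraries clear of native ones, and Fos and Egr1 sit on few reads. Replicates are far apart for Jun in MMP13 libraries and for Ier2 and Atf3 in native libraries.

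In the direct comparison of MMP13- with MMP1-treated matrix, 0 of the 10 genes were called by limma in either direction, where 0.0412% of all tested genes were called higher and 0 lower. At an unadjusted p under 0.05 there was 1 of the 10, Atf3, and 5.22% of all tested genes. On recovered reads edgeR and DESeq2 called 0 of the set, and 2 and 1 genes in all. Groups did not overlap for 4 genes, Junb higher on MMP13-treated matrix and Fosl1, Btg2 and Atf3 lower, where 15.9% of tested genes stood apart in the higher and 15.4% in the lower direction. Against native, 3 of the 10 stood apart as higher on MMP13-treated matrix (18.9% of all tested genes) and 5 on MMP1-treated matrix (19.6%), and 0 as lower on either (18.6% and 18.8%). The MMP13 count was Ier2, Ier3 and Junb, and the MMP1 count added Jun and Btg2. Both comparisons use the same 2 native libraries.

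**Figure D4:**
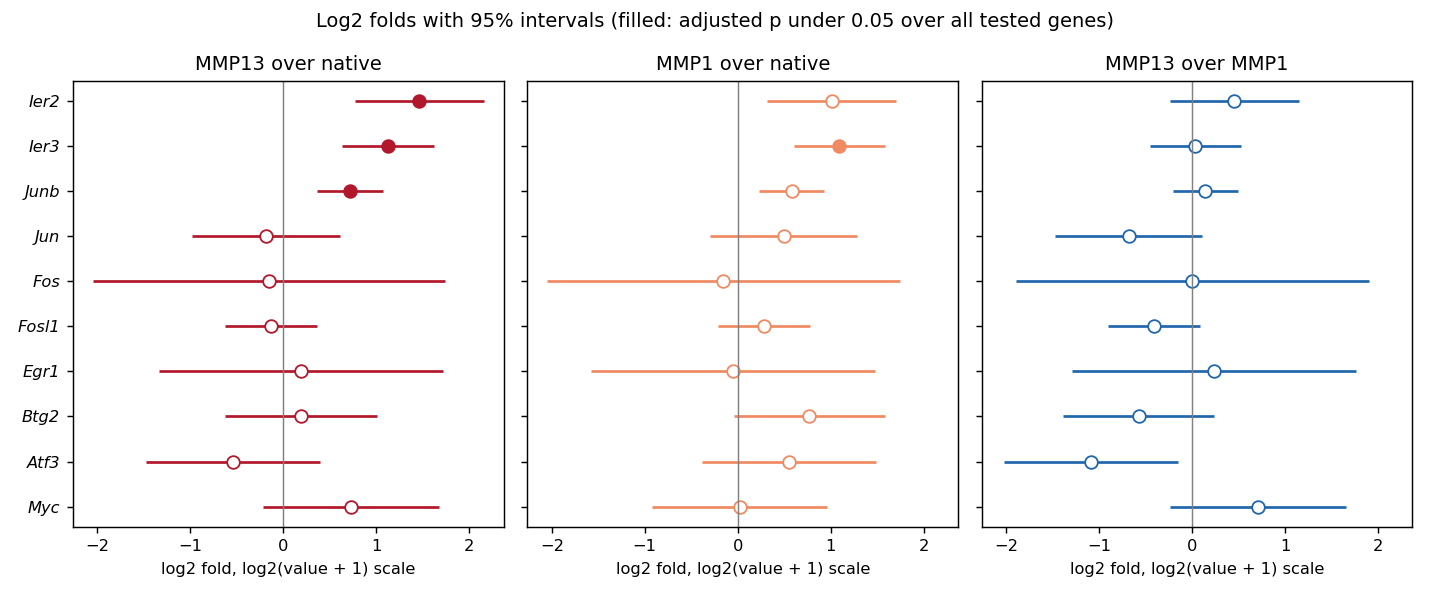
Log2 folds on the log2(value + 1) scale (x axis) with 95% intervals for each gene (y axis) in the 3 comparisons, filled where the adjusted p over all tested genes was under 0.05. Ier2, Ier3 and Junb are filled for MMP13 over native, Ier3 for MMP1 over native, and no gene for MMP13 over MMP1.

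Other early response genes did not pass. Of 9 further bZIP genes tested, 0 passed in any comparison, and 6 had a log2 fold above 0 on MMP13-treated and 9 on MMP1-treated matrix. Among them Atf4, the translation-controlled stress factor, had 305 and 227 units on MMP13-treated matrix, 247 and 274 on MMP1-treated matrix and 159 and 188 on native matrix, with log2 folds of 0.60 and 0.58 (adjusted p = 0.12 and 0.16). Fosl2, another FOS relative, had log2 folds of -0.82 and 0.17. Of 20 further early transcription factor and RNA-binding genes tested, 0 passed, with Zfp36l2 at log2 folds of 0.87 and 1.40 and Id2 at -0.64 and -1.33 on MMP13- and MMP1-treated matrix (adjusted p of at least 0.249).

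Of 21 early feedback and signalling genes tested, 0 passed, and their median log2 folds of 0.06 and 0.0078 lay close to those of all genes. The kinase gene Pim1 had 52.2 and 57.1 units on MMP13-treated matrix, 29.2 and 24.0 on MMP1-treated matrix and 21.9 and 19.6 on native matrix, with a log2 fold of 1.36 on MMP13-treated matrix (SE 0.40, adjusted p = 0.12). For Zfp36, whose protein speeds the decay of early transcripts, the log2 fold was 1.35 (SE 0.52, adjusted p = 0.37). Of 10 early secreted and enzyme genes, 0 passed. Of these Cxcl1, a neutrophil chemokine, had log2 folds of 0.51 and 0.58 (adjusted p = 0.41 and 0.27), and the EGF receptor ligand Areg -2.12 and -0.86 (adjusted p = 0.48 and 0.85). Of 21 kinases and factors upstream, 0 passed, with Mapk14, which encodes the p38 alpha kinase, at log2 folds of 1.22 and 0.17 and the adaptor Shc1 at -1.00 and -0.29.

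Among 8 tested genes known as AP-1 targets, 1 was called higher and 1 lower on MMP13-treated matrix, beside 0.275% and 0.137% of all tested genes. On MMP1-treated matrix 0 were called, beside 0.137% and 0.0137%. Whether AP-1 drove any of these values was not tested. The autophagy receptor gene Sqstm1 had 376 and 312 units on MMP13-treated matrix, 329 and 294 on MMP1-treated matrix and 204 and 227 on native matrix. Its log2 fold was 0.67 on MMP13-treated matrix (adjusted p = 0.025) and 0.53 on MMP1-treated matrix (adjusted p = 0.18). Mmp9, a gelatinase gene, had 18.4 and 3.36 units on MMP13-treated matrix, 21.9 and 36.0 on MMP1-treated matrix and 54.7 and 20.4 on native matrix. Its log2 fold was -1.91 on MMP13-treated matrix (adjusted p = 0.030) and -0.24 on MMP1-treated matrix (adjusted p = 0.94). With 1 library left out at a time, the call of Sqstm1 held in 1 of 6 fits and that of Mmp9 in 2 of 6, where its log2 fold ran from -2.98 to -0.83 and edgeR gave an adjusted p of 0.11. The ferritin heavy chain gene Fth1 had log2 folds of 0.25 and 0.13, and the cells' own Mmp13 -0.65 and -0.50 on MMP13- and MMP1-treated matrix, none of them called. Of 16 Myc targets 1 passed, the nucleoside diphosphate kinase gene Nme2, with a log2 fold of -0.45 on MMP13-treated matrix (adjusted p = 0.0499), a call lost in all 6 fits with a library left out. Ncl, which encodes the nucleolar protein nucleolin, had log2 folds of 0.46 and 0.80, and lactate dehydrogenase A, Ldha, -0.25 and -0.44, on MMP13- and MMP1-treated matrix, none of them called.

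Some stress genes and the ribosomal RNA entry Rn45s were also called higher on both treated matrices. Hmox1, the haem oxygenase of the oxidative stress response, had 835 and 749 units on MMP13-treated matrix, 355 and 301 on MMP1-treated matrix and 129 and 167 on native matrix. Thioredoxin, Txn1, had 233 and 186, 223 and 215, and 83.9 and 154 units in the same groups. Of 10 stress genes tested, 4 were called higher on MMP13-treated matrix, Hmox1, Txn1, the peroxiredoxin gene Prdx1 (log2 fold 0.76, adjusted p = 1.9e-04) and Hspb1, which encodes a small heat shock protein (log2 fold 0.70, adjusted p = 0.0499). Of the same 10, Hmox1 and Txn1 were called on MMP1-treated matrix, and 0 were called lower on either. Of all tested genes 0.275% were called higher on MMP13-treated and 0.137% on MMP1-treated matrix. The stress genes called on neither had mixed log2 folds on MMP13- and MMP1-treated matrix. These were 1.18 and 0.53 for Srxn1, 0.25 and 0.36 for Trib3, and 0.18 and -0.33 for Dnajb1. For Sesn2 they were 0.03 and 0.37, for Ddit3 0.0052 and 0.69, and for Gclm -0.23 and -0.56. The ribosomal RNA entry Rn45s took 0.692% and 0.968% of reads on MMP13-treated matrix, 0.661% and 0.936% on MMP1-treated matrix and 0.347% and 0.293% on native matrix. The other entry, Rn28s, was called on MMP13-treated matrix (log2 fold 1.32, adjusted p = 1.6e-06) and not on MMP1-treated matrix (0.79, adjusted p = 0.11). Summed leukocyte markers took 0.00742% to 0.00828% of reads on MMP13-treated, 0.00933% to 0.00978% on MMP1-treated and 0.00501% to 0.00604% on native matrix, with 8 of the 9 listed genes found in the table and 1 of these, Laptm5, at 0 in all libraries. These shares rest on few reads. Of the leukocyte markers only 1, Cd14, passed the filter for testing. It was not called on MMP13- or MMP1-treated matrix (log2 folds 0.33 and 0.56, adjusted p = 0.93 and 0.83). The part of the stress genes, ribosomal RNA entries or leukocyte markers in the early gene values was not tested.

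The mean log2 value of the 10 genes was matched most closely, over the 6 libraries and among 3566 tested genes at or above the median level, by Ensa (Pearson r = 0.99), Aldh2 (0.97), Aph1a (0.96), Iffo2 (0.95) and Nrbp1 (0.94). Ensa had 25.0 and 30.2 units on MMP13-treated matrix, 40.9 and 22.8 on MMP1-treated matrix and 14.6 and 15.1 on native matrix. With 6 libraries and so many genes, values of r this high are a description only. Each member is itself part of that mean, which raises its r, so member values cannot be set beside those of outside genes. Among members, Ier3 followed the mean with r = 0.93, Junb with 0.80 and Ier2 with 0.77, while Fosl1 had 0.04 and Jun 0.13.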

How the data were processed

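Messenger RNA was measured in 6 libraries of Rat-1 fibroblasts, 2 per group, and groups and replicate numbers were taken from the sample titles. Per the labels' protocols, these were 3' end libraries with a random molecular identifier (UMI) of 8 nucleotides. TopHat, DESeq and bcl2fastq are named, with the build rn5, per the submitters' processing notes. For the gene counter, strand use, UMI collapsing and tool versions, the sources used here give nothing. Each deposited value is a normalized signal, a gene's reads over a size factor of its library. The unit was inferred: dividing each library by its smallest value above 0 gave whole reads for 100% of values, within 0.01 reads. Unless UMIs were collapsed, reads are not independent molecules, and Poisson limits cover counting error only.

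With R 4.3.3, limma 3.58.1 was fitted, using eBayes and an intensity trend, on log2(value + 1), which understates folds of low genes, with 1 coefficient per group and no replicate block. Testing covered the 7284 of 17143 genes that reached 5 units in 2 or more libraries. The estimated prior degrees of freedom were infinite. Alternatives included edgeR 4.0.16 (4574 genes) and DESeq2 1.42.0 on the recovered reads. Scripts were tested on simulated counts. The members, gene lists and tests were chosen with earlier results of these data known. All members are named. Of the other lists of early genes, kinases and targets, every called gene and the 2 further genes with the smallest p were named, and Hmox1, Txn1, Rn45s and the 5 genes most like the members' mean were added by the same rule. Prdx1, Hspb1, Rn28s and the uncalled stress genes were named after their values were seen.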

Additional observations from a re-analysis of the deposited data

How the results depend on the processing

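The folds of Ier2, Ier3 and Junb against native kept their sign under every alternative that gave them a value. With a library left out that had to follow, since their treated libraries all lay above the native ones. The number of early genes called did not hold. On MMP13-treated matrix 3 of the 10 were called, 1 with TMM factors from all genes, 0 in limma without the trend and 0 with each gene's own error, and between 0 and 3 with a library left out. Over all tested genes TMM factors left 7 higher and 1 lower there, and limma without the trend or with each gene's own error called 0 genes in any comparison. On MMP1-treated matrix 1 was called, and 0 with TMM factors from all genes, in limma without the trend, with each gene's own error and by DESeq2, and between 0 and 1 with a library left out. In MMP13 over MMP1, 0 were called under every alternative. Pseudocounts of 0.5 and 5, a stricter filter at 20 units and quantile scaling left 3 calls on MMP13-treated and 1 on MMP1-treated matrix. On recovered reads edgeR called the same 3 genes on MMP13-treated matrix and Ier3 on MMP1-treated matrix, of 32 and 10 genes in all. DESeq2 called Ier3 and Junb on MMP13-treated matrix, of 30 genes in all, and gave Ier2 there no adjusted p. Junb on MMP13-treated matrix also lost its call with no filter on low values (adjusted p = 0.070) and with only the 2 groups compared (0.055). Across the alternatives its adjusted p lay between 0.015 and 0.83, that of Ier2 there from 0.0058 to 0.999, that of Ier3 there from 0.0032 to 0.76 and that of Ier3 on MMP1-treated matrix from 0.0075 to 0.71.

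Signs of uncalled genes turned as follows. The log2 fold of Myc on MMP1-treated matrix was -0.036 with TMM factors. That of Jun on MMP13-treated matrix was 0.29 by edgeR and 0.18 by DESeq2. That of Fos in MMP13 over MMP1 was -0.032 with a pseudocount of 5, -0.051 with quantile scaling and -0.15 by DESeq2. With a library left out, on MMP13-treated matrix Jun ran from -1.19 to 0.81, Fos from -1.01 to 0.70, Fosl1 from -0.31 to 0.044, Egr1 from -0.34 to 0.71, Btg2 from -0.049 to 0.43 and Atf3 from -1.39 to 0.30. On MMP1-treated matrix Fos ran from -1.01 to 0.70, Egr1 from -0.42 to 0.33, Atf3 from -0.30 to 1.40 and Myc from -0.34 to 0.38. In MMP13 over MMP1 it was Ier3 from -0.17 to 0.24, Jun from -1.68 to 0.32, Fos from -0.64 to 0.64 and Egr1 from -0.29 to 0.76. The cause was not tested.

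The replicate block, with the replicate number as a term, gave 3 calls on MMP13-treated and 1 on MMP1-treated matrix, as without it. Replicate differences of the groups correlated with r between -0.07 and 0.01 over genes. At this depth counting error may hide a shared culture or batch, so whether replicates of the same number belong together was not settled. Over all tested genes 20 were higher and 10 lower on MMP13-treated matrix, and with a library left out between 5 and 30 and between 0 and 24. On MMP1-treated matrix 10 were higher and 1 lower, and then between 3 and 15 and between 0 and 4. In MMP13 over MMP1, 3 were higher and 0 lower, and then between 1 and 4 and between 0 and 23. Depth limits Fos and Egr1 most, at 26 and 39 reads in all.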
